A study of Mus musculus with 6 samples.

Results

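The lysosome is the acidic compartment in which cells break down proteins, sugars and lipids delivered by endocytosis and autophagy, and the genes described here encode its working parts. They were chosen by name from a list of lysosomal membrane proteins, cathepsins and their inhibitor, other hydrolases, and the transcription factors Tfeb and Tfe3: 35 genes of the 31017 in the deposited count table. All 35 were found in the table, and 34 of them passed the filter on low counts that left 14268 genes for testing. The list was drawn up with results of the comparison below known, so the counts and tests over its members are a description of these libraries, and no support is drawn from them.

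The study sequenced total RNA from mouse Th17 cells, CD4+ T helper cells that make interleukin-17, differentiated in vitro. A control group, labelled WT, had 3 libraries, and a group labelled KO and described as RTF1-deficient had 3. RTF1 acts beside the PAF1 complex on RNA polymerase II while transcripts are being elongated. The labels give no strain, age, sex, time of culture or method of deletion, and they do not say whether the 3 libraries of a group came from separate mice or cultures. The p-values below therefore measure only the spread between these libraries.

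Total counts per library ran from 16489813 to 51271226 in the control group and from 19304121 to 35907999 in the KO group. Levels are given in CPM, the share of a gene in the counts of a library after scaling with TMM factors, a unit that allows one gene to be compared between libraries. Rtf1 stood at 94, 91.2 and 88.3 CPM in control libraries 1 to 3 and at 45.3, 30.4 and 26.2 CPM in KO libraries 1 to 3. It fell by 1.42 on the log2 scale (SE 0.191, edgeR quasi-likelihood test with Benjamini-Hochberg adjustment over all tested genes, adjusted p = 0.000755), which left 37.3% of the control level. Control library 3 and KO library 3 stood apart from the others in 4 Y-linked genes, with 11376 and 5147 counts against 1 to 3 counts elsewhere. The counts of lysosomal genes that rose or fell are given below with and without these libraries.

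Lysosomal hydrolases are made as inactive precursors, carried to the compartment largely by mannose 6-phosphate receptors, and activated by the acid that a proton pump, the V-ATPase, maintains. Cathepsins are the main lysosomal proteases, and most of them are cysteine proteases. In T cells lysosomal proteases take part in granule protein processing and in the breakdown of surface receptors, and lysosomal lipid export feeds cholesterol back to the cell. TFEB and TFE3 are related transcription factors that bind an E-box motif in the promoters of many lysosomal genes and are held in the cytoplasm while mTORC1 is active.

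Most of the measured lysosomal genes were higher in the KO libraries. Of 34 tested genes, 23 rose (67.6%), 4 fell (11.8%) and 7 were not called at an adjusted p under 0.05. Over all 14268 tested genes, 23.2% rose and 22.9% fell, so that 46.1% changed in either direction. Among the 9453 tested genes with a mean level in the same range as these genes (5.64 to 595 CPM), 24.2% rose and 27.5% fell. The median log2 fold change of the 34 genes was 0.80, with a range of -0.77 to 2.66, beside a median of 0.01 over all tested genes. With control library 3 and KO library 3 left out, 23 genes rose and 4 fell.

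A rise of at least 2-fold was seen in 14 of the 34 genes (41.2%), beside 11.3% of all tested genes. No fall reached that size, where 11.0% of all tested genes fell at least 2-fold, and the largest fall, of Tfeb, was -0.77 on the log2 scale. Every KO library lay above every control library for 24 of the 34 genes and below for 4, and the groups overlapped for the other 6. The same order was found for 29.9% (KO above) and 28.0% (KO below) of all tested genes, 57.9% in all. The summed counts of the 35 genes made up 0.230%, 0.238% and 0.270% of the total in control libraries 1 to 3, a mean of 0.246% ± 0.0211 (SD, n = 3). In the KO libraries the sums were 0.437%, 0.520% and 0.584%, a mean of 0.514% ± 0.0732 (SD, n = 3). The lowest KO share lay above the highest control share. Bulk RNA gives a mean over all cells. A change in the number of cells with a transcript and a change in transcript per cell therefore cannot be told apart.

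**Figure D1:**
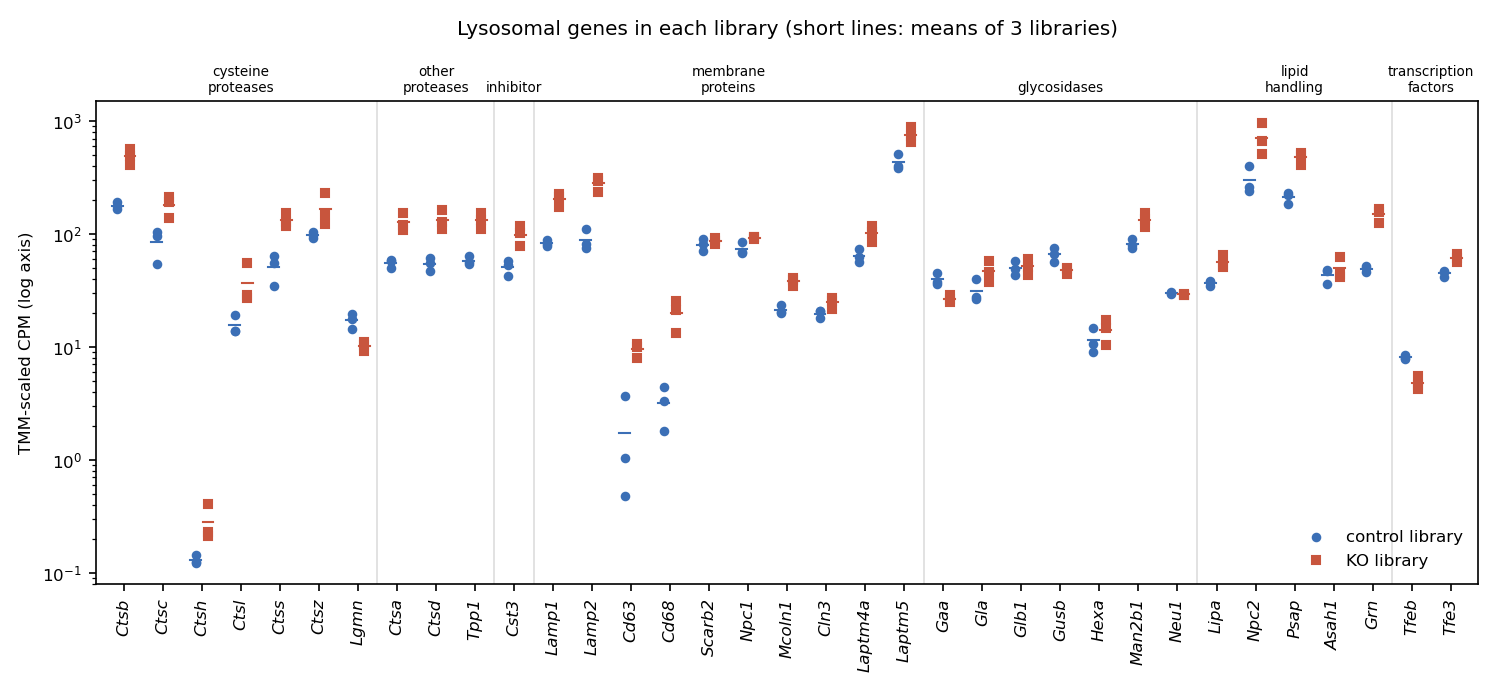
TMM-scaled CPM (log axis) of the 35 lysosomal genes in each of the 6 libraries, grouped by role, with circles for control libraries, squares for KO libraries and short lines for group means. For 24 of the 34 tested genes the 3 KO squares lie above the 3 control circles, for Lgmn, Gaa, Gusb and Tfeb they lie below, and Ctsh lies near the bottom of the plot in every library.

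The spread between libraries of a group was moderate for most of these genes. The median coefficient of variation of the 34 tested genes was 13% in the control group and 14.4% in the KO group. Tested genes in the same range of levels had medians of 12.7% and 10.1%. Neu1 varied least, by 1.96% and 1.25%, and the widest spreads were 99.4% for Cd63 in the control group and 42.4% for Ctsl in the KO group. The KO libraries differed from each other in the size of the shift: the median log2 ratio of the 34 genes to the control mean was 0.61, 0.80 and 0.89 in KO libraries 1, 2 and 3.

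**Figure D2:**
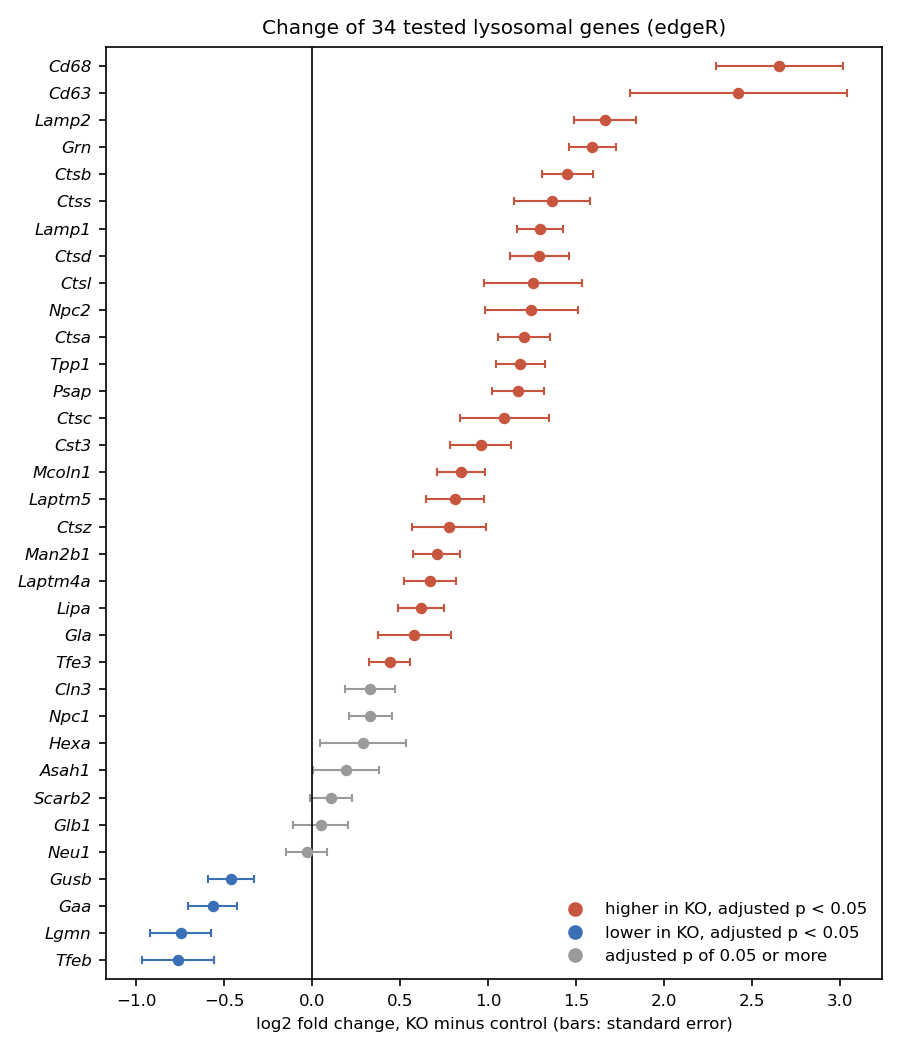
Log2 fold change, KO minus control, of the 34 tested lysosomal genes with standard errors from edgeR, ordered by size and coloured by call. The 23 genes that rose run from Tfe3 (0.44) to Cd68 (2.66), the 4 that fell run from Gusb (-0.46) to Tfeb (-0.77), and 7 lie between without a call.

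The promoters of these genes were searched for the motif that TFEB and TFE3 are known to bind, since most of the genes moved in the same direction. RefSeq promoters (GRCm38.p6) ran from 250 bases before to 50 bases after a RefSeq start. They were matched for 31 of the 35 genes (all but Ctsb, Ctsh, Npc1 and Asah1), with 38 promoters in all. The palindromic motifs CACGTG (the E-box) and TCACGTGA (the longer form) were searched on both strands, and every TCACGTGA also holds a CACGTG. TCACGTGA was found at 5 of the 31 genes (16.1%), beside 2.19% of the 10397 tested genes with a promoter and 1.12% of all 27025 genes of the promoter table. CACGTG was found at 10 of the 31 genes (32.3%), beside 11.6% of tested genes and 8.09% of all genes. Genes that carry TCACGTGA were Ctsa, Ctsd, Gla and Mcoln1, which rose, and Cln3, which was not called. Among genes with no TCACGTGA, CACGTG was found at Ctsl and Lamp1, which rose, at Gaa and Lgmn, which fell, and at Glb1, which was not called. Ctsd, Mcoln1 and Cln3 each have a further CACGTG outside their TCACGTGA. TCACGTGA was at 4 of 22 genes that rose, 0 of 4 that fell and 1 of 5 not called, and CACGTG at 6, 2 and 2 of them. These letters describe the sequence and are not measured binding sites. The motif is known from promoters of many lysosomal genes, so a high share in such a list says nothing of these libraries. Whether the motifs bear on the changes was not tested.

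The sequences below show these motifs in capitals, read 5′ to 3′ on the strand of the gene in GRCm38.p6. The Lamp1 stretch (chr8:13159078-13159160, plus strand) is shown because it holds 4 copies of CACGTG, starting 61, 45, 28 and 15 bases before the RefSeq start. The others are sites of TCACGTGA: Ctsa (chr2:164833749-164833772, plus strand), Ctsd (chr7:142387908-142387937, minus strand), Mcoln1 (chr8:3500462-3500491, plus strand) and Cln3 (chr7:126583340-126583369, minus strand) with 1 site each shown, and Gla (chrX:134601215-134601244 and chrX:134601182-134601211, minus strand) with 2. Ctsa also has 2 sites, starting 13 bases before and 5 bases after the RefSeq start, and the first is shown. The GENCODE models of Ctsa, Ctsd, Mcoln1 and Cln3 begin further upstream, so the sites shown lie inside them. Annotated exons of the same gene overlap the windows of Ctsa, Ctsd, Mcoln1 and Cln3, and both Gla windows overlap an exon of the neighbouring gene Hnrnph2.
Lamp1: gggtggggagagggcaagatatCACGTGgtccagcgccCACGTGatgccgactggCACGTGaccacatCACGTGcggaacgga
Ctsa: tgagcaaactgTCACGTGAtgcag
Ctsd: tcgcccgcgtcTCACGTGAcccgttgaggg
Mcoln1: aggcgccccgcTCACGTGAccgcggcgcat
Gla, distal site: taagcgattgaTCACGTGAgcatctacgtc
Gla, proximal site: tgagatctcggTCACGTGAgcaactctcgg
Cln3: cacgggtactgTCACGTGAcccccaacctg

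Among the cysteine proteases, 5 of 6 tested genes rose, Lgmn fell, and the median log2 fold change was 1.17. Ctsb, a cysteine cathepsin with both endopeptidase and carboxypeptidase activity, lies at chr14:63122462-63145923 (GRCm38, GENCODE M21, the source of the gene positions that follow). It stood at 176, 192 and 168 CPM in control libraries 1 to 3 and at 412, 486 and 566 CPM in KO libraries 1 to 3. The groups were far apart, with means of 179 ± 12.2 and 488 ± 77.1 CPM (SD, n = 3). The log2 fold change was 1.45 ± 0.144 (SE; adjusted p = 0.000236) in edgeR. Exons of Fdft1 overlap 12.8% of its exonic bases.
Cathepsin S (Ctss, chr3:95526786-95556403), an endopeptidase known for cutting the class II invariant chain, was measured at 34.4, 55.8 and 63.4 CPM in the control group. The KO group had 117, 127 and 153 CPM. No KO library reached down to the control range, and the edgeR log2 fold change was 1.36 ± 0.215 (SE; adjusted p = 0.00151).

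Ctsc (chr7:88278085-88310888) encodes dipeptidyl peptidase 1, the enzyme that activates granzymes and other granule serine proteases. Its levels were 96.4, 104 and 53.9 CPM in control libraries and 213, 191 and 138 CPM in KO libraries. Library 3 was the lowest of its group in both, and the change was 1.09 ± 0.252 (SE; adjusted p = 0.00785) on the log2 scale in edgeR.
The endopeptidase gene Ctsl (chr13:64359337-64370890) stood at 19, 13.9 and 13.9 CPM against 26.9, 55 and 28.9 CPM. KO library 2 was far above the other KO libraries, and the edgeR log2 fold change of 1.26 ± 0.280 (SE; adjusted p = 0.00677) became 0.85 without that library. Of the exonic bases of Ctsl, 26.8% are shared in the annotation with other genes (Gm47123 and Gm49230), so part of its reads cannot be assigned with certainty.

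Ctsz, a carboxypeptidase also called cathepsin X, rose from 97.7 ± 5.87 to 168 ± 56.2 CPM (SD, n = 3), by 0.78 ± 0.211 (SE; adjusted p = 0.0157) on the log2 scale in edgeR. KO library 3 had 231 CPM and the other KO libraries had 150.1 and 123 CPM. The log2 fold change was 0.48 without KO library 3, and the call was lost without control library 1 (adjusted p = 0.0691 in edgeR).
Lgmn, the asparaginyl endopeptidase legumain that processes several cathepsin precursors, moved the opposite way. It fell from 17.2 ± 2.50 to 10.3 ± 1.02 CPM (SD, n = 3), with all KO libraries below all control libraries, a change of -0.75 ± 0.171 (SE; adjusted p = 0.00756) on the log2 scale in edgeR. Ctsh, an aminopeptidase of the same family, had 2 to 8 counts per library and was not tested.

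Each of the other 3 proteases rose, by similar amounts. Cathepsin D (Ctsd, chr7:142375911-142388038), the main lysosomal aspartic protease, was at 46.8, 61 and 55 CPM in control libraries and at 110.0, 126 and 163 CPM in KO libraries. Its log2 fold change in edgeR was 1.29 ± 0.167 (SE; adjusted p = 0.000643). Of its 50-base exonic stretches, 32.4% also occur in the overlapping model Gm49369, which leaves part of its count uncertain.
Tpp1 (chr7:105744811-105752235), a serine protease that removes tripeptides from the ends of proteins, stood at 54.7, 56.6 and 63.3 CPM against 111, 133 and 153 CPM. This amounted to 1.18 ± 0.139 (SE; adjusted p = 0.000446) on the log2 scale in edgeR, with no overlap between the groups.

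Ctsa (chr2:164832873-164841032) encodes a serine carboxypeptidase that also holds beta-galactosidase (Glb1) and neuraminidase 1 (Neu1) together in a protective complex. Its levels were 49.8, 57.3 and 59.2 CPM in the control group and 109, 119.8 and 154 CPM in the KO group, a log2 fold change of 1.20 ± 0.149 (SE; adjusted p = 0.000546) in edgeR. Its exons overlap those of Pltp and Neurl2 over 17.4% of their bases.
The genes of its partner enzymes did not pass the test. Glb1 was at 43.5, 48.9 and 57.4 CPM and 43.5, 51.1 and 60.5 CPM, with an adjusted p of 0.822 in edgeR. Neu1 was at 29.9, 29.2 and 30.3 CPM and 28.8, 29.5 and 29.1 CPM, the tightest of all 34 genes in both groups, with an adjusted p of 0.834 in edgeR.
The log2 fold change was 0.05 ± 0.158 (SE) for Glb1 and -0.03 ± 0.115 (SE) for Neu1, beside 1.20 for Ctsa. Genes of 3 proteins of 1 complex thus gave 1 call and 2 values near 0, and the difference between them was not itself tested.

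Cystatin C (Cst3), a secreted inhibitor of cysteine cathepsins, also rose. It was at 42.4, 57.1 and 52.6 CPM in the control group and 77.7, 102 and 117 CPM in the KO group, a log2 fold change of 0.96 ± 0.174 (SE; adjusted p = 0.00269) in edgeR.

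Of the 10 lysosomal membrane proteins, 7 rose and 3 were not called, with a median log2 fold change of 0.83. The main structural glycoproteins of the membrane were among those that rose. Lamp1 (chr8:13159161-13175338) stood at 80.9, 89.2 and 78.3 CPM in control libraries and 173, 211 and 225 CPM in KO libraries, a log2 fold change of 1.30 ± 0.130 (SE; adjusted p = 0.000243) in edgeR.
Lamp2 (chrX:38401357-38456454), whose splice forms also serve chaperone-mediated autophagy, was at 75.1, 81.6 and 110.4 CPM against 238, 296 and 315 CPM. Its mean rose 3.18-fold, by 1.67 ± 0.177 (SE; adjusted p = 0.000291) on the log2 scale in edgeR. For both genes every KO library lay well above every control library.

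Cd68 and Cd63 had the largest fold changes of the 34 genes and were among the lowest per length in the control libraries. Cd68 (chr11:69664213-69666153), a heavily glycosylated LAMP-family protein often used as a macrophage marker, was at 3.34, 1.80 and 4.42 CPM in the control group and 13.3, 21.4 and 25.3 CPM in the KO group. Its log2 fold change was 2.66 ± 0.361 (SE; adjusted p = 0.000790) in edgeR.
Cd63 (chr10:128900989-128912822), a tetraspanin of late endosomes, lysosomes and secretory granules, was at 1.03, 0.475 and 3.71 CPM in the control group, a spread of almost the size of the mean. The KO libraries were close together at 7.97, 10.04 and 10.6 CPM. The log2 fold change was 2.42 ± 0.617 (SE; adjusted p = 0.0121) in edgeR and 3.75 without control library 3, the highest of the control group. Of its 50-base exonic stretches, 11.03% also occur in the pseudogene Cd63-ps.

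Laptm5 (chr4:130913125-130936141), a lysosomal membrane protein of blood cells that promotes degradation of the T cell receptor, had the highest level per length of these genes. Its levels were 388, 397 and 511 CPM in control libraries and 658, 733 and 884 CPM in KO libraries. The groups did not overlap, and the log2 fold change was 0.81 ± 0.163 (SE; adjusted p = 0.00417) in edgeR.
Its relative Laptm4a rose from 64.2 ± 8.15 to 102 ± 15.9 CPM (SD, n = 3), by 0.67 ± 0.148 (SE; adjusted p = 0.00653) on the log2 scale in edgeR. Mcoln1, the calcium channel TRPML1 of the lysosomal membrane, rose from 21.4 ± 2.04 to 38.3 ± 3.30 CPM (SD, n = 3), by 0.85 ± 0.135 (SE; adjusted p = 0.00158) in edgeR.

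The 3 membrane proteins without a call had smaller differences. Scarb2, the membrane protein LIMP-2, a sorting receptor of the lysosome, was at 70.6, 80.8 and 89.9 CPM against 81.4, 92.1 and 86.6 CPM, with overlapping groups and an adjusted p of 0.496 in edgeR.
Npc1, the membrane protein that moves cholesterol out of the lysosome, was at 68.7, 67.3 and 85.8 CPM in the control group and 90.3, 94.6 and 94 CPM in the KO group. Its log2 fold change of 0.33 had an adjusted p of 0.0536 in edgeR and of 0.0285 with the replicate number as a block. Cln3, a membrane protein whose loss causes a neuronal storage disease, had a log2 fold change of 0.33 ± 0.142 (SE; adjusted p = 0.0858) in edgeR.

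Of the 7 glycosidases, 2 rose (28.6%), 2 fell (28.6%) and 3 were not called, shares close to the 23.2% and 22.9% of all tested genes, with a median log2 fold change of 0.05. Man2b1, the lysosomal alpha-mannosidase, rose from 82.1 ± 7.43 to 134 ± 18.9 CPM (SD, n = 3), by 0.71 ± 0.134 (SE; adjusted p = 0.00324) on the log2 scale in edgeR. Gla, the alpha-galactosidase A that is lacking in Fabry disease, rose by 0.58 ± 0.207 (SE; adjusted p = 0.0458) in edgeR, but its groups overlapped. Control library 3 had 40.3 CPM and KO library 1 had 37.8 CPM, and the call was lost when control library 1 or 2 or KO library 2 or 3 was left out.

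Gaa, the acid alpha-glucosidase that breaks down glycogen in the lysosome, was lower in the KO group. It stood at 37.8, 35.9 and 45.4 CPM against 26.5, 25.1 and 28.9 CPM, with no overlap and a log2 fold change of -0.57 ± 0.138 (SE; adjusted p = 0.0101) in edgeR. Gusb, the beta-glucuronidase, fell from 65.8 ± 8.74 to 47.8 ± 2.87 CPM (SD, n = 3), a log2 change of -0.46 ± 0.130 (SE; adjusted p = 0.0182) in edgeR. Without KO library 2 neither gene passed the test (adjusted p = 0.0548 for Gaa and 0.0825 for Gusb in edgeR), and Gusb also missed it without control library 2 (0.0530).
Hexa, a glycosidase that acts on gangliosides, was at 9.06, 10.7 and 14.7 CPM against 10.4, 14.7 and 17.3 CPM, with overlapping groups and an adjusted p of 0.354 in edgeR.

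Of the 5 genes of lipid and sphingolipid handling, 4 rose and Asah1 was not called, with a median log2 fold change of 1.17. Grn (chr11:102430315-102437048), the progranulin precursor of the lysosomal granulins, was at 46, 52.6 and 49.6 CPM in control libraries and 125, 165 and 156 CPM in KO libraries. Its change was 1.59 ± 0.134 (SE; adjusted p = 0.000131) on the log2 scale in edgeR, the smallest adjusted p of the 34 genes.
Psap (chr10:60277627-60302597) encodes prosaposin, which is cut into the saposins that present sphingolipids to their hydrolases. It was at 183, 219 and 232 CPM against 405, 521 and 505 CPM. The groups were well apart, and the log2 fold change was 1.17 ± 0.148 (SE; adjusted p = 0.000592) in edgeR.

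Npc2 (chr12:84754562-84773152), the soluble protein that hands cholesterol to NPC1, was at 240.3, 258 and 400.2 CPM in control libraries and 512, 659.5 and 961 CPM in KO libraries. Library 3 was the highest of its group in both, and the log2 fold change was 1.25 ± 0.265 (SE; adjusted p = 0.00542) in edgeR. Its membrane partner Npc1 had a log2 fold change of 0.33, and the difference between the genes was not tested.
Lipa, the lysosomal acid lipase that frees cholesterol and fatty acids, rose from 36.8 ± 1.90 to 56.5 ± 7.87 CPM (SD, n = 3), by 0.62 ± 0.133 (SE; adjusted p = 0.00559) in edgeR. Asah1, the acid ceramidase, was at 35.8, 47.8 and 46.8 CPM against 41.6, 63 and 44.4 CPM, with overlapping groups and an adjusted p of 0.425 in edgeR.

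The transcription factors that are known to drive these genes moved in opposite directions. Tfeb (chr17:47737030-47792419) was at 8.02, 8.46 and 7.86 CPM in control libraries and 4.25, 4.57 and 5.54 CPM in KO libraries. Every KO library lay below every control library, and the log2 fold change was -0.77 ± 0.206 (SE; adjusted p = 0.0152) in edgeR.
Tfe3 (chrX:7762560-7775202) was at 47.2, 45.7 and 41.7 CPM against 60.7, 56.2 and 66 CPM. It rose by 0.44 ± 0.117 (SE; adjusted p = 0.0141) on the log2 scale in edgeR, and the groups did not overlap. The call for Tfeb was lost without KO library 2 (adjusted p = 0.0603), and that for Tfe3 without control library 1 or 3 or KO library 3 and with libraries 1 and 2 alone (adjusted p from 0.0563 to 0.0763). RNA levels say nothing of where either protein is in the cell.

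Levels of different genes can be compared only per length, so the CPM of each gene was divided by the length of its annotated exons in kilobases. On this scale Laptm5 was highest in both groups, at 114 in the control group and 200.2 in the KO group, followed by Psap (77.1 and 174), whose KO libraries overlapped with those of Laptm5. Npc2 (55.1 and 131) and Ctsz (67.8 and 116) came next and were not apart beyond the spread of their libraries. Among the cathepsins Ctsz was followed by Ctss (37.7 and 97.5), Ctsb (29.5 and 80.7) and Ctsd (23.1 and 56.6), while Ctsl was low (2.40 and 5.69). The inhibitor Cst3 was in the range of its targets, at 40.04 and 78. By the mean of the 6 libraries Tfeb was the lowest of the 34 tested genes, at 1.43 and 0.844, while Cd63 was lower still in the control group alone (0.472 and 2.59). Tfe3 was higher than Tfeb, at 4.85 and 6.58. Exon lengths count every annotated exon, so a gene that uses only short forms is placed too low.

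**Figure D3:**
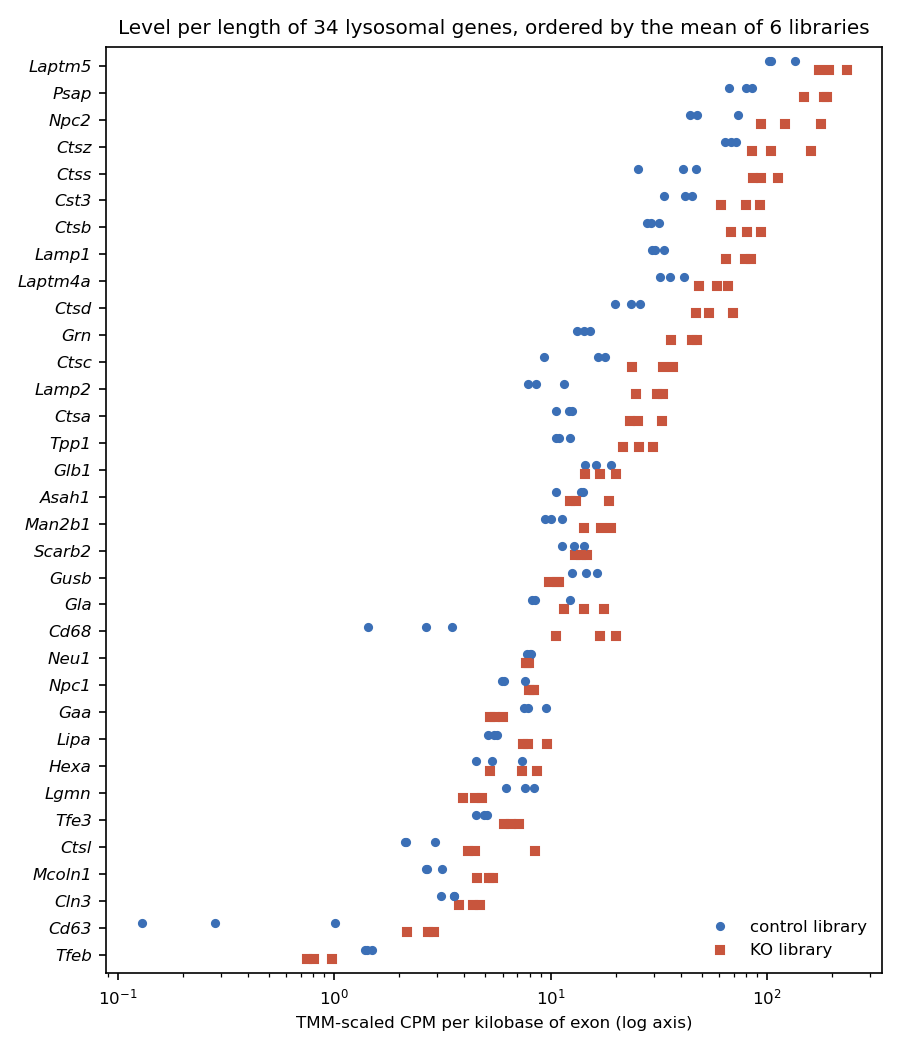
TMM-scaled CPM per kilobase of annotated exon (log axis) for the 34 tested lysosomal genes, ordered by the mean of the 6 libraries, with circles for control and squares for KO libraries. Laptm5, Psap, Npc2 and Ctsz head the order, and Cd63 and Tfeb end it, from a mean of 157 for Laptm5 to 1.14 for Tfeb.

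The wider lysosomal machinery was read from 6 lists of other genes, which together with the other cathepsin inhibitors hold 163 genes. Of these, 158 were tested, 75 rose (47.5%) and 17 fell (10.8%), beside 23.2% and 22.9% of all tested genes, and the median log2 fold change was 0.44. With control library 3 and KO library 3 left out, 76 rose and 14 fell.

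Of 19 tested V-ATPase subunits, 13 rose (68.4%), none fell and 6 were not called, beside 23.2% and 22.9% of all tested genes. The median log2 fold change was 0.51. Atp6v1b2, a subunit of the ATP-hydrolysing part of the pump, was at 84.8, 106 and 84.4 CPM in control libraries and 259, 287 and 299 CPM in KO libraries, a log2 fold change of 1.62 ± 0.132 (SE; adjusted p = 0.000119) in edgeR. Atp6ap1, an accessory protein of the pump, was at 84.6, 93.8 and 82.7 CPM against 207, 252 and 288 CPM, a change of 1.52 ± 0.143 (SE; adjusted p = 0.000195). Subunits of the membrane part and of the ATP-hydrolysing part were both among those that rose. Not called, and named after their values were seen, were Atp6v1a, the catalytic subunit, at 176, 191 and 195 CPM against 194, 185 and 185 CPM (adjusted p = 0.986 in edgeR), and Atp6v1h (0.02 on the log2 scale, adjusted p = 0.896).

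Among 36 other hydrolases 12 rose (33.3%) and 5 fell (13.9%), beside 23.2% and 22.9% of all tested genes. The median log2 fold change was 0.40. Ctso, a cysteine cathepsin outside the main list, rose from 8.98 ± 2.11 to 32.1 ± 3.06 CPM (SD, n = 3), by 1.83 ± 0.190 (SE; adjusted p = 0.000265) in edgeR. Acp5, the tartrate-resistant acid phosphatase, had the largest fall, from 39.2, 42.4 and 39.7 CPM to 10.7, 13 and 14 CPM, a log2 fold change of -1.68 ± 0.145 (SE; adjusted p = 0.000136) in edgeR. Others that fell were Ppt2, Pla2g15 and Prcp, named after their values were seen, at -0.53, -0.65 and -0.54 on the log2 scale. Ppt2 shares 32.3% of its 50-base exonic stretches with the overlapping model Gm20460. Without KO library 2 only 3 hydrolases fell.

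Of 25 other lysosomal membrane proteins, 14 rose (56.0%) and Mcoln3 fell (4.0%), beside 23.2% and 22.9% of all tested genes. The median log2 fold change was 0.66. Cd164, a sialomucin found in lysosomes and at the cell surface, was at 155, 160.1 and 210.3 CPM against 457, 522 and 652 CPM, a change of 1.63 ± 0.178 (SE; adjusted p = 0.000337) in edgeR. Mcoln2, a channel related to Mcoln1, was at 1.28, 0.908 and 1.31 CPM in the control libraries and at 7.10, 5.10 and 17.7 CPM in the KO libraries. Its log2 fold change was 3.10 ± 0.486 (SE; adjusted p = 0.00146) in edgeR and 2.40 without KO library 3. The third channel of this family, Mcoln3, was under 1 CPM in every library and lower in the KO group (log2 fold change -2.27, adjusted p = 0.00934 in edgeR), so the 3 related channels did not move as one.

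Of 18 tested genes that sort enzymes to the lysosome, 6 rose (33.3%) and 3 fell (16.7%), beside 23.2% and 22.9% of all tested genes, with a median log2 fold change of 0.16. Gnptab, the enzyme that begins the mannose 6-phosphate tag, rose from 52.8 ± 3.13 to 89.5 ± 3.18 CPM (SD, n = 3), by 0.76 ± 0.104 (SE; adjusted p = 0.000818) in edgeR. Igf2r, a receptor for that tag, was at 127, 101 and 163 CPM against 197, 192 and 245 CPM, a change of 0.70 ± 0.184 (SE; adjusted p = 0.0141) in edgeR that missed the threshold without control library 1 or KO library 3. Gga2, an adaptor that loads these receptors into vesicles, fell from 17.8 ± 1.98 to 7.32 ± 1.93 CPM (SD, n = 3), a log2 change of -1.28 ± 0.216 (SE; adjusted p = 0.00196) in edgeR. Cln6 (-0.43 on the log2 scale, adjusted p = 0.0438) and Sort1, named after its values were seen (-1.29, adjusted p = 0.0497 in edgeR), each lost their call under 8 of 14 other settings. Without control library 1 the count of sorting genes that rose was 3.

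Genes that control TFEB and its relatives gave 6 rises (35.3%) and 2 falls (11.8%) among 17 tested, beside 23.2% and 22.9% of all tested genes. Their median log2 fold change was 0.26. Flcn, the folliculin subunit of a complex that acts on the Rag GTPases at the lysosome, was at 26.7, 22.5 and 22.2 CPM in control libraries and 76.4, 97.9 and 94.4 CPM in KO libraries. Its change was 1.92 ± 0.142 (SE; adjusted p = 7.86e-05) on the log2 scale in edgeR, with no overlap. Its partner Fnip2 moved the other way, from 17.8, 13.7 and 16.5 CPM to 10.3, 5.69 and 7.57 CPM, a log2 change of -1.02 ± 0.236 (SE; adjusted p = 0.00789) in edgeR. The related Fnip1, named after its values were seen, had more counts and was not called. Its means were 92.2 CPM in the control group and 106 CPM in the KO group (adjusted p = 0.420 in edgeR).
Zkscan3, described as a repressor of lysosomal and autophagy genes, rose from 39.7 ± 7.34 to 103 ± 18 CPM (SD, n = 3), by 1.38 ± 0.179 (SE; adjusted p = 0.000657) in edgeR. Ppp3cb, a catalytic subunit of the phosphatase calcineurin, which acts on TFEB, fell from 134 ± 11.5 to 86.9 ± 7.02 CPM (SD, n = 3), a log2 change of -0.63 ± 0.115 (SE; adjusted p = 0.00292) in edgeR. The related Ppp3ca, also named after its values were seen, rose from a mean of 7.80 to 14.7 CPM. Its log2 fold change was 0.91 ± 0.225 (SE; adjusted p = 0.0109) in edgeR.

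**Figure D4:**
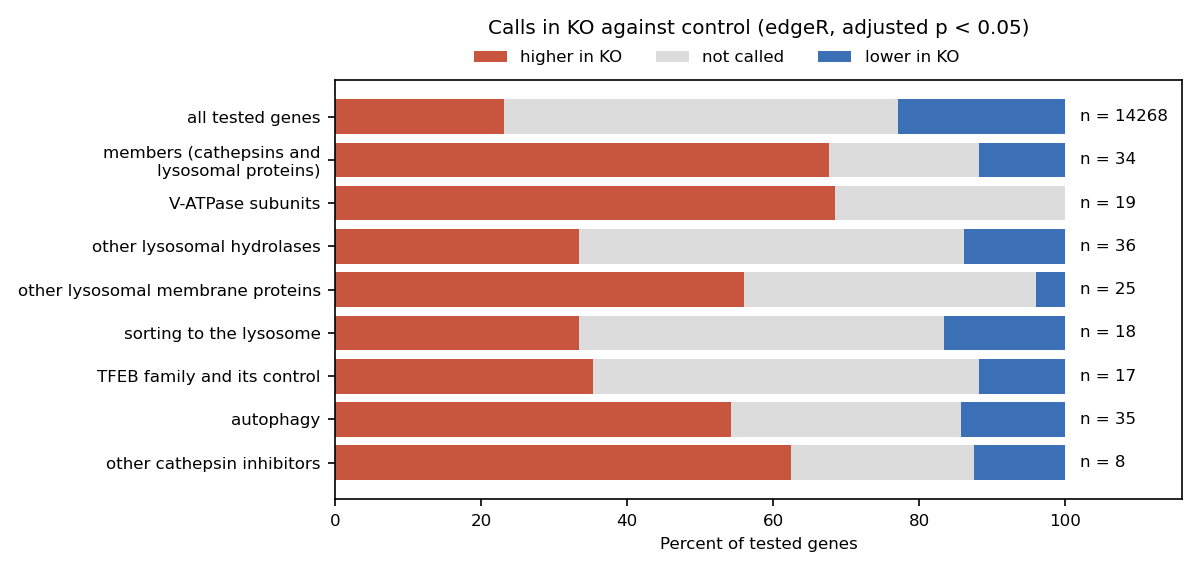
Percent of tested genes that were higher, not called or lower in KO against control (edgeR, adjusted p under 0.05) for all tested genes, the cathepsins and lysosomal proteins, and 7 lists of other genes, with the number tested beside each bar. The share of rises is 67.6% for the lysosomal proteins, 68.4% for V-ATPase subunits and 33.3% for sorting genes, beside 23.2% of all tested genes.

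Markers of cell types were read beside these results. Markers of T cells (10 genes) summed to between 2848 and 3353 CPM in control libraries and between 2401 and 2873 CPM in KO libraries. Of these, 2 were called higher (Cd3e and Cd3g) and 4 lower (Cd4, Cd5, Lck and Trbc1). Cd4 fell from a mean of 486 to 254 CPM, and Cd3e rose from 199 to 326 CPM. Markers of Th17 cells (6 genes) summed to between 1965 and 2713 CPM in control libraries and between 611 and 1333 CPM in KO libraries, and 5 of the 6 fell. The labelled cell type was thus met by its markers in both groups. The Th17 markers summed to less in the KO group, while T cell markers went both ways.

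Some lysosomal genes, Cd68 and Ctss among them, are abundant in macrophages and dendritic cells. The 16 macrophage and monocyte markers summed to between 2.43 and 3.37 CPM in control libraries and between 9.45 and 14.4 CPM in KO libraries. Of the 7 tested, 4 were called higher (Csf1r, Mpeg1, Fcer1g and Mrc1) and none lower. Mpeg1, at means of 0.13 and 5.71 CPM, made up much of the KO sums. Lyz2, Spi1 and Tyrobp, with too few counts to be tested, lay higher in every KO library than in any control library. Their control and KO means were 0.045 and 0.816, 0.069 and 0.270, and 0.114 and 0.210 CPM. Fcgr3 was not called but lay lower in every KO library, at means of 0.545 and 0.211 CPM. C1qa, C1qb, C1qc and Marco were at 0 in all 6 libraries, 9 of the 16 genes were under 1 CPM in each library, and Adgre1, which encodes F4/80, did not pass 0.134 CPM. The 7 dendritic cell markers summed to between 1.80 and 3.59 CPM in control libraries and between 8.73 and 10.6 CPM in KO libraries. Only Xcr1 was called higher, at means of 0.635 and 4.91 CPM, and it made up much of the KO sums. Zbtb46, not called (means of 1.82 and 3.75 CPM), also lay higher in every KO library than in any control library. So did Itgax, not tested (0.034 and 0.488 CPM), and the groups overlapped for Flt3, Clec9a, Siglech and Cd209a. The 6 B cell markers summed to at most 12.3 CPM in any library and were lower in the KO group, where the highest sum was 7.16 CPM. The 7 class II antigen presentation genes summed to between 68.5 and 106 CPM in control libraries and between 56.3 and 115 CPM in KO libraries. These similar sums hide opposite changes, with 4 called higher and 2 lower. H2-Ab1 fell from a mean of 41.6 to 1.73 CPM, and H2-DMb1 also fell. Cd74 rose from a mean of 27.2 to 56.1 CPM, and H2-Aa, H2-DMa and Ciita also rose. The 5 CD8 T cell and NK cell markers summed to between 10.7 and 14.9 CPM in every library. Beside these levels Ctss ran from 34.4 to 63.4 CPM in control and from 117 to 153 CPM in KO libraries, and Cd68 from 1.80 to 4.42 and from 13.3 to 25.3 CPM, and the part of other cell types in the rises was not tested.

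**Figure D5:**
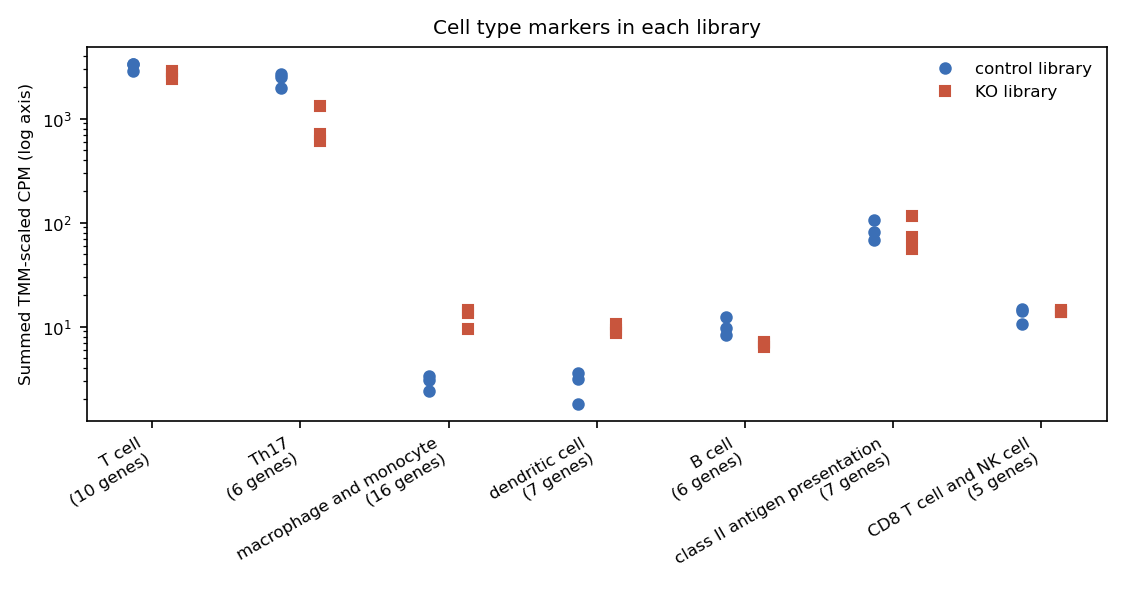
Summed TMM-scaled CPM (log axis) of 7 lists of cell type markers in each of the 6 libraries, with circles for control and squares for KO libraries and the number of genes under each name. The sums of T cell markers exceed 2401 CPM in every library, and those of Th17 markers are lower in the KO libraries. The sums of macrophage and dendritic cell markers are at or below 14.4 CPM and higher in the KO libraries.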

How the data were processed

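RNA of 6 libraries, 3 control and 3 KO, was sequenced. The authors deposited a table of raw counts per gene symbol. Alignment with STAR to mm10, counting with featureCounts and the use of DESeq2 are named in the submitters' processing notes, and versions, annotation and strand setting are not given in the sources used here. Every count column (0 left over) was matched to a sample by its name. Without a known strand setting, reads of overlapping genes cannot be told apart. Overlaps and lengths came from GENCODE M21 models (GRCm38), found for 98.2% of symbols.

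All 6 libraries were fitted with edgeR 4.0.16 in R 4.3.3 (limma 3.58.1): TMM factors, filterByExpr by group, quasi-likelihood test, Benjamini-Hochberg adjustment over 14268 genes, called at an adjusted p under 0.05. The biological coefficient of variation was 0.212. Standard errors are the log2 fold change divided by the square root of F. The members and gene lists were chosen with earlier results of these data known. Full values are given for called members with a log2 change of at least 1 and a mean of at least 5 CPM, the 3 highest per kilobase and both transcription factors. From each list, up to 2 called genes per direction with a mean of at least 5 CPM are named, and some genes that the rule names are not reported here. On simulated data with 14268 genes and the libraries' own depths, edgeR recovered 58% of 100 genes changed by 1 on the log2 scale and 94% of 100 changed by 2.

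The labels number the libraries 1 to 3 in each group. Deviations from the group means correlated at 0.27, 0.13 and 0.38 between libraries of the same number. For other pairs the values lay between -0.39 and 0.20 (across 14268 genes, which are not independent). Control library 2 correlated more with KO library 1 (0.20) than with KO library 2 (0.13). Pairing by number is therefore possible but not shown. The main fit did not use the number, and an alternative fit took it as a block. The other alternatives were 3 normalizations, DESeq2 1.42.0, 2 filters, each library left out, and libraries 1 and 2 alone.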

Additional observations from a re-analysis of the deposited data

How the results depend on the processing

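Of the 27 called lysosomal genes, 21 kept their direction and call under each of 14 alternatives: 20 that rose, and Lgmn, which fell. The count of genes that rose was 23, between 22 and 25 under the other settings, and from 20 to 23 with a library left out. The count that fell was 4, and from 1 to 4 with a library left out: without KO replicate 2 it was 1, since Gaa, Gusb and Tfeb were lost. For other lysosomal genes the rises numbered 75, from 59 to 76 with a library left out, 85 with the replicate block and 86 with library size only, and the falls 17, from 12 to 19 with a library left out. Over all genes 6574 were called, and from 4460 (without KO replicate 2) to 7050 with a library left out. The median log2 fold change of the 34 genes lay between 0.67 and 0.88. The replicate block called 24 lysosomal genes higher and 7628 of all genes in either direction, and it changed no call of a member other than that of Npc1 (adjusted p = 0.0285). Npc1 was also called higher with library size only, with a mean count of at least 10, without control replicate 3 and with libraries 1 and 2 alone, and Cln3 with library size only (adjusted p = 0.0455). Upper-quartile factors removed the call of Gla. The direction of 4 uncalled genes turned: Neu1 to 0.055 with library size only, Scarb2 to -0.043 without control replicate 1 (up to 0.15 with another library left out), Glb1 to -0.11 without control replicate 1 and -0.079 without KO replicate 3 (up to 0.15), and Asah1 to -0.015 without KO replicate 2 (up to 0.30). For each, the cause was not tested. With library size only the median of all genes moved to 0.10, and 10 genes of the TFEB control list rose in place of 6. Sorting genes that fell numbered 1 in place of 3 without control replicate 2, without KO replicate 2 or 3, with library size only and with libraries 1 and 2 alone. In the simulated data 58% of genes changed by 1 on the log2 scale were called. Only 100 genes were changed by 1 there and 100 by 2, while 46.1% of tested genes were called in these libraries. The adjusted p therefore cuts at a different place, and the 58% cannot be carried over. A gene without a call is not shown to be unchanged.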

Other observations

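Genes of autophagy, the route that brings cytoplasm to the lysosome, were also read. Of 35 tested, 19 rose (54.3%) and 5 fell (14.3%), beside 23.2% and 22.9% of all tested genes. The median log2 fold change was 0.54. Map1lc3b, the LC3 protein that coats the autophagosome, was at 63.3, 82 and 64.4 CPM in control libraries and 216, 280.5 and 291 CPM in KO libraries, a log2 fold change of 1.91 ± 0.161 (SE; adjusted p = 0.000132) in edgeR. Ulk1, the kinase that starts autophagy, rose from 35.5 ± 7.47 to 86.7 ± 12.9 CPM (SD, n = 3), by 1.28 ± 0.176 (SE; adjusted p = 0.000819) in edgeR. The genes that fell were Atg2b (-0.64 on the log2 scale), a lipid transfer protein, and Atg4a (-0.76), an LC3 protease, with Atg4c (-1.67), Wipi1 (-1.53) and Uvrag (-0.61), named after their values were seen. The value of Atg4a is uncertain, since 51.2% of its 50-base exonic stretches also occur in the pseudogene Atg4a-ps. Related genes went opposite ways: Atg2a, also named after its values were seen, rose by 0.90 ± 0.142 (SE; adjusted p = 0.00151) and Atg2b fell by 0.64 (0.124 SE, adjusted p = 0.00344 in edgeR).

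Of 8 tested inhibitors of cathepsins other than Cst3, 5 rose (62.5%) and 1 fell (12.5%), beside 23.2% and 22.9% of all tested genes. The gene that fell was Cst6, under 1 CPM in every library, by 2.24 on the log2 scale. Serpina3g, a serpin of activated T cells that acts on cysteine cathepsins, was at 3.71, 3.63 and 0.713 CPM in control libraries and 16.1, 4.81 and 22 CPM in KO libraries, a change of 2.43 ± 0.668 (SE; adjusted p = 0.0167) in edgeR that missed the threshold without KO library 3 (adjusted p = 0.0554). Of its 50-base exonic stretches, 15.5% also occur in the related gene Serpina3f. Serpinb1a was at 1.28, 4.64 and 7.48 CPM against 14.5, 21 and 13 CPM, a change of 1.81 ± 0.482 (SE; adjusted p = 0.0145) in edgeR, also lost without control library 2 or KO library 2. Ctla2a, named after its values were seen with Cstb and Serpinb6a, was at 117, 173 and 165 CPM against 357, 534 and 277 CPM and rose by 1.36 ± 0.246 (SE; adjusted p = 0.00271) in edgeR. It shares 25.5% of its 50-base exonic stretches with the overlapping model Gm49391, so its count is uncertain. Cstb and Serpinb6a rose by 0.74 and 0.96 on the log2 scale.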
